A study of Rattus norvegicus with 12 samples.

Results

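The cytosolic ribosomal protein genes were followed in the postnatal rat heart. Members were the rows of the deposited expression table annotated as protein coding whose symbol began with Rpl or Rps and a digit, or was Rplp0, Rplp1, Rplp2 or Rpsa, leaving out the S6 kinases. The rule gave 89 rows under 84 symbols, out of 16898 rows in all, of which 14902 are protein coding. Of the members, 53 rows belong to the large subunit and 35 to the small subunit, and 1 row, Rps19bp1, carries the name of a protein that binds a ribosomal protein and belongs to neither.

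The study took heart tissue of Sprague Dawley rats at 2 ages. The older hearts are given as postnatal day 7 by the sample labels, whereas the column headers of the table read 10D. Day 0 hearts are postnatal day 0 by the labels, and their headers read OD, which was taken as day 0. Each age has 3 libraries of input RNA, which measure transcript levels; the 6 libraries enriched for N6-methyladenosine with an antibody were not analysed here. The labels name no treatment, allele or sex, and they do not say whether a library came from 1 animal or from a pool. Nor do they say that replicates came from separate animals, and the p-values therefore reflect library-to-library spread that may be technical.

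Ribosomal proteins assemble with ribosomal RNA into a large subunit, which joins amino acids into protein, and a small subunit, which reads the mRNA. Cells make the proteins in matched amounts, and their mRNAs share a run of pyrimidines at the very start, the terminal oligopyrimidine (TOP) motif, through which the mTORC1 kinase and the RNA-binding protein Larp1 control their translation. In the heart, ribosome number sets how much protein a growing cardiomyocyte can make, and the newborn heart moves within days from growth by cell division to growth by cell enlargement.

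Levels are given as FPKM, that is, reads divided by the length of the gene and by the size of the library. They can be compared between genes only as far as the lengths used are right. The recovered length was 152 bases for Rps14 and 5151 bases for Rpl7, and lengths were not checked against the mRNAs. The order of levels between members is therefore uncertain, whereas comparing 1 gene between ages does not depend on its length. Library totals recovered from the table were 15868418, 16097510 and 15027254 reads in the older hearts and 14613968, 13489816 and 16297533 reads in day 0 hearts, and the rows of the table held 99.5% to 99.6% of them. Ribosomal RNA was removed before sequencing, and the heart identity of the tissue showed in Myh6, at 7572 ± 582 FPKM in the older and 4499 ± 449 FPKM in day 0 hearts (SD, n = 3 each). Among 9 cardiomyocyte markers 1 was higher and 1 lower in the older hearts. Among 9 fibroblast markers 6 were higher and 0 lower (limma, adjusted p under 0.05), with a summed level of 2091 to 2249 FPKM in the older hearts and 834 to 1316 FPKM in day 0 hearts, and none of the 9 was at 0 in all libraries. Of 7 endothelial markers, Cdh5 and Cldn5 were higher (log2 fold change 0.81 and 1.01) and 0 lower. Of 9 pericyte and smooth muscle markers, Rgs5 was higher (1.85) and Acta2 and Cnn1 lower (-1.68 and -2.91). Beside these marker counts, limma called 5.73% of all genes tested lower and 3.52% higher. The summed level of 8 macrophage markers, 48.8 to 69.0 FPKM in the older and 47.6 to 97.1 FPKM in day 0 hearts, and that of 4 erythroid markers, 569 to 1198 and 503 to 820.3 FPKM in the same order, overlapped. Whether these differences have a part in the values below was not tested, and in whole tissue fewer cells of a type and less RNA per cell cannot be told apart.

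Ribosomal protein transcripts took a smaller share of the summed FPKM of the older hearts, in both subunits. All members together made up 2.79%, 2.79% and 3.12% of summed FPKM in the older hearts, against 4.11%, 3.89% and 4.30% in day 0 hearts. The 2 ages did not overlap. Large subunit members took 1.805% ± 0.140 in the older hearts and 2.56% ± 0.0845 in day 0 hearts, and small subunit members 1.09% ± 0.0568 and 1.54% ± 0.121 in the same order (SD, n = 3 each). The older hearts thus held 0.705 times the day 0 share for the large and 0.711 times for the small subunit. The size of the drop depended on the total used. As a share of protein coding rows without mitochondrial genome genes, the values were 0.769 and 0.776 times.

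On summed FPKM, the balance between the subunits differed by less than the spread between libraries. The ratio of large over small subunit sums was 1.67, 1.58 and 1.70 in the older hearts, against 1.67, 1.75 and 1.597 in day 0 hearts, with means of 1.65 ± 0.0647 and 1.67 ± 0.0766 (SD, n = 3 each). The sums rest on few rows: the 10 most abundant members gave 44.3% of the members' summed FPKM in the older hearts and 46.0% in day 0 hearts. The median row gave another balance, but it was not the same gene in every library. The median FPKM of large over that of small subunit members was 1.02, 0.972 and 1.05 in the older hearts, against 1.36, 1.46 and 1.32 in day 0 hearts, without overlap. The median large subunit row stood at 107 ± 12.6 FPKM in the older and 179 ± 10.8 FPKM in day 0 hearts, 0.598 times. The median small subunit row stood at 105 ± 8.39 and 129.6 ± 9.86 FPKM in the same order, 0.812 times (SD, n = 3 each). These values compare unlike genes. Followed gene by gene, the median fold of older over day 0 was 0.731 in the large and 0.729 in the small subunit.

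**Figure D1:**
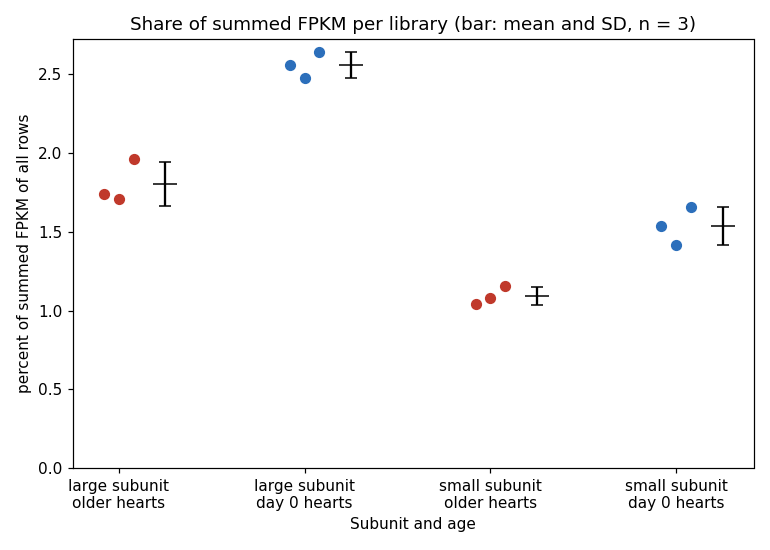
Members' summed FPKM as a percent of the summed FPKM of all rows, one point per library, older hearts left of day 0 hearts for each subunit; black marks are mean and SD (n = 3). For each subunit the 3 older libraries lie below the 3 day 0 libraries, at means of 1.805% and 2.56% for the large and 1.09% and 1.54% for the small subunit.

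Gene by gene, 31 members were lower in the older hearts and 0 were higher, out of 86 tested. The test was limma on log2(FPKM + 1) with Benjamini-Hochberg adjustment at 0.05 over the 13117 genes that averaged 1 FPKM or more; fold changes are on that scale and understate the change of low genes. Over all genes tested, 5.73% were called lower and 3.52% higher. At an unadjusted p under 0.05 limma gave 45 members lower and 0 higher. The share of all genes at that unadjusted threshold was not counted, so the 45 cannot be set against the percentages for adjusted p. Voom on the recovered reads called 35 lower and 0 higher, where it called 8.43% of all genes lower. The share called was 17 of 51 tested in the large subunit and 14 of 34 in the small subunit. Rpl3l, Rpl8 and Rps15al4 had means under 1 FPKM and were not tested. In 47 tested members every older library lay below every day 0 library, and in 0 every one lay above, where 20.3% and 12.2% of all genes tested showed these patterns.

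The calls lay among the abundant members. Of 49 members with a mean of at least 100 FPKM, 30 were called lower (17 of 29 in the large and 13 of 20 in the small subunit), where 26.3% of the 571 genes of that level were. Of 28 members between 10 and 100 FPKM, 1 was called, and of 12 below 10 FPKM, of which 9 were tested, 0 were called by limma. The median standard error of the log2 fold change was 0.12 in the first class and 0.24 in the second, so a difference of one size was harder to detect in the less abundant members. Within an age the members varied by a median coefficient of variation of 15.1% in the older and 13.5% in day 0 hearts, where read counting alone would give 2.51%.

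The median log2 fold change, older minus day 0, was -0.45 in the large subunit and -0.46 in the small subunit, and 76 of the 86 tested members had a negative one. The median of all genes was itself -0.11, and 58.6% of them were negative. Relative to that shift, the medians of the large and the small subunit were -0.34 and -0.35. Among all genes of at least 100 FPKM the median was -0.21, with 67.3% negative. Across the 86 tested members, which share their libraries, the fold change had a Spearman correlation of -0.35 with the mean level and of 0.05 with gene length.

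**Figure D2:**
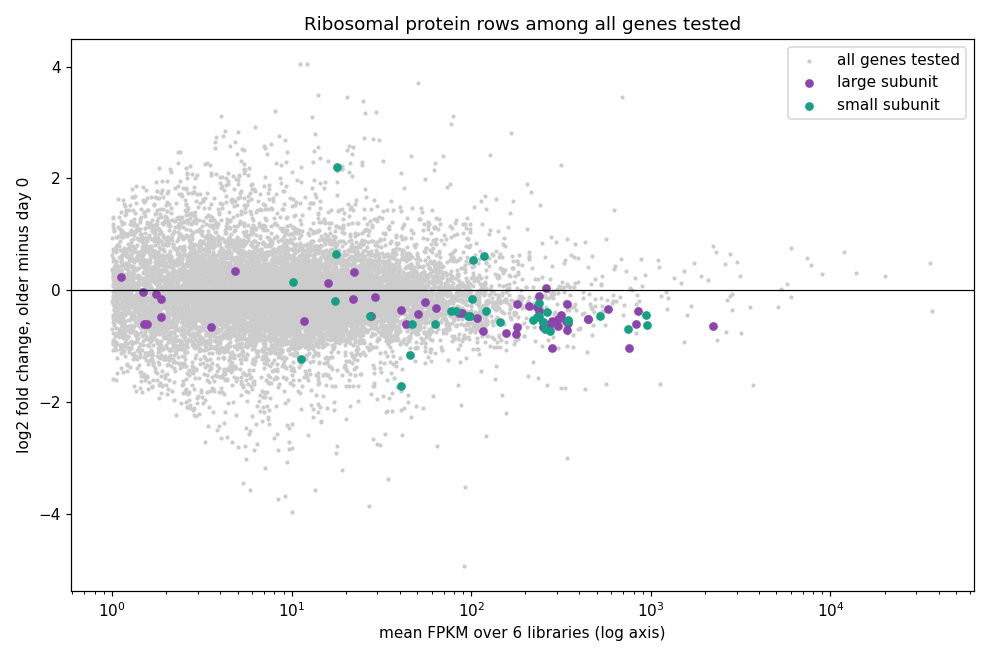
Log2 fold change, older minus day 0, against mean FPKM over the 6 libraries (log axis) for the 13117 genes tested (grey), the large subunit (purple) and the small subunit (green). Above 100 FPKM 46 of 49 members lie below 0; the small subunit rows far from the others at lower levels include Rps19 at 2.21 and Rps18 at -1.70.

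Scaling and single libraries changed how many members passed. After each library was centred on its median, 20 members were called lower against 3.54% of all genes, and after quantile normalization 9 against 3.65%. The count of negative members was 72 and 73 of 86 under these scalings. The median log2 fold change of all genes was then 0.0096 and -0.018 in that order. The share of all genes with a negative value was not counted under either scaling. With 1 library left out, the members called were 11 without older replicate 1, 4 without older replicate 2, 16 without older replicate 3, 7 without day 0 replicate 1, 9 without day 0 replicate 2 and 25 without day 0 replicate 3, beside 2.01%, 1.66%, 2.02%, 2.17%, 1.91% and 4.92% of all genes called lower in the same order. Rpl4, Rpl18, Rpl21 and Rps23 passed in each of these refits and under each scaling, filter and pseudocount tried. The other 27 lost the call in at least 1 refit with a library left out, where the highest adjusted p of each ran from 0.0506 to 0.153 (limma). Rps16 and Rpsa kept it in 5 of the 6 refits, at adjusted p = 0.0506 and 0.0544 without older replicate 2, and Rpl35, Rps15a and Rps24 in 0.

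**Figure D3:**
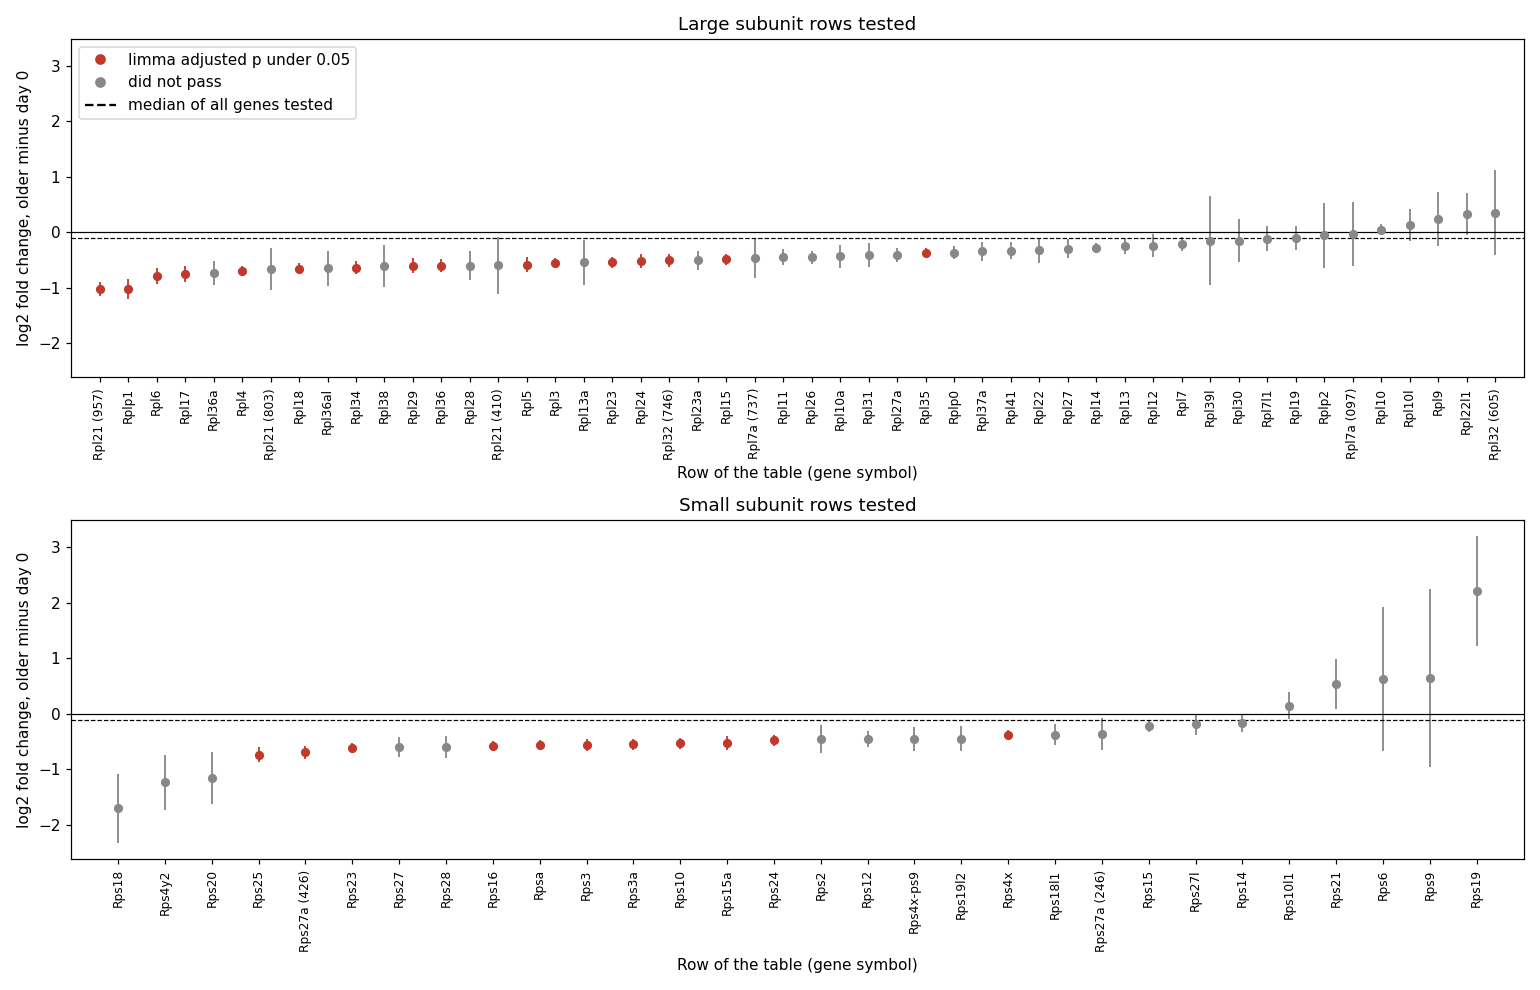
Log2 fold change, older minus day 0, of tested rows, ordered within each subunit, with some rows not drawn; bars are the standard error of limma's fit, red points passed at adjusted p under 0.05, and the dashed line is the median of all genes tested (-0.11). Rows that share a symbol carry the last digits of their identifier. The red points lie between -0.38 and -1.02, and the grey rows at both ends of the small subunit have the longest bars.

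The promoters below show how the start of these genes looks where the TOP motif would lie. RefSeq's promoter table (build GRCr8) held a start site for 64 members. A run of at least 8 C or T bases beginning with C, read on the gene's strand anywhere from 40 bases before to 20 after the start site, was present in 41 of the 64 (64.1%), against 18.2% of 33469 promoters of any gene. On the opposite strand it was present in 7.81% of members and 19.3% of all promoters. It was found in 26 of 38 large subunit and 15 of 25 small subunit promoters, and in 14 of 25 called against 25 of 37 tested but not called members. Each line gives the 60 bases from 5′ to 3′ with the run in capitals; Rplp1, Rpl4 and Rps23 have one and passed the test, Rpl18 and Rpl3 passed it with none in this window, and Rpl3l is the muscle-specific copy of Rpl3.
Rplp1, chr8:71290853-71290912, minus strand: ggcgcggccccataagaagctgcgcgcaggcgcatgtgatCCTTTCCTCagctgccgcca
Rpl4, chr8:73566437-73566496, plus strand: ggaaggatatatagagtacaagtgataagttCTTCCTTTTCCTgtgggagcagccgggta
Rps23, chr2:23814477-23814536, plus strand: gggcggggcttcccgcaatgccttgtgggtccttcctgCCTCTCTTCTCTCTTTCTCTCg
Rpl18, chr1:105325230-105325289, plus strand: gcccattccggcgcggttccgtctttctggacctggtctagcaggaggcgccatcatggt
Rpl3, chr7:113507971-113508030, minus strand: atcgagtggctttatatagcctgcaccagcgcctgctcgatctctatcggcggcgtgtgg
Rpl3l, chr10:14258406-14258465, plus strand: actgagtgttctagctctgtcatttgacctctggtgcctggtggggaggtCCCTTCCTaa
A match describes these letters and is no proof of a TOP mRNA, and a RefSeq start can lie some bases from the start used in heart. The letters CCGGAAG, on either strand of the 300-base promoter, were present in 28.1% of members and 8.75% of all promoters, and TATAA, on the gene's strand of the 60-base window, in 12.5% and 4.12%.

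Among large subunit proteins at the catalytic core, Rpl4, which lines the tunnel through which the new protein leaves, had 259, 259.7 and 259 FPKM in the older hearts, against 395, 435 and 437 FPKM in day 0 hearts. The 3 older libraries were nearly equal and all lay below day 0. Its log2 fold change was -0.70 ± 0.09 (SE, limma adjusted p = 0.00471). Rpl3, which reaches toward the peptidyl transferase centre, had 251, 282 and 291 FPKM in the older hearts, against 389, 416 and 399.8 FPKM in day 0 hearts, and fell by 0.55 on the log2 scale (adjusted p = 0.0148). Without day 0 replicate 2 its adjusted p was 0.0632. Rpl10, which joins late and completes the catalytic site, had 282, 238 and 275 FPKM in the older hearts and 252, 274 and 243 FPKM in day 0 hearts. These overlapped, with a log2 fold change of 0.05 (limma adjusted p = 0.82), which made Rpl10 the one member above 100 FPKM in the large subunit with a positive value.

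Of the proteins around the tunnel exit, Rpl17 had 117 ± 21.0 FPKM in the older hearts and 196 ± 23.5 FPKM in day 0 hearts, and Rpl35 had 734 ± 47.3 and 952 ± 35.7 FPKM in the same order (SD, n = 3 each). Both were called lower (adjusted p = 0.0241 and 0.0440, limma), at 0.09999 for Rpl17 without older replicate 2 and 0.138 for Rpl35 without older replicate 3. Rpl23a, the docking site of factors that meet the new chain, had 251 ± 47.8 FPKM in the older and 355 ± 48.9 FPKM in day 0 hearts and did not pass (adjusted p = 0.107, limma).

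The stalk is the flexible arm that brings elongation factors to the ribosome, built of Rplp0 at its base with Rplp1 and Rplp2 on it. Rplp1 had 417, 433 and 653 FPKM in the older hearts, against 963, 927 and 1109.7 FPKM in day 0 hearts. The third older library was the highest of its age and still below day 0. It fell by 1.02 on the log2 scale (limma adjusted p = 0.0163, and 0.0779 without older replicate 2). Rplp0 had 189, 225 and 208 FPKM in the older hearts and 268, 300.3 and 237 FPKM in day 0 hearts. The ages did not overlap, but the log2 fold change of -0.37 did not pass (adjusted p = 0.0999). Rplp2 was listed at 0.357 to 3.63 FPKM in the older and 0.787 to 3.35 FPKM in day 0 hearts, far below its partner Rplp1. Each library held only 2 to 19 reads of it, and its level is as uncertain as that of the other rows close to 0 described below.

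Rpl5 and Rpl11 enter the large subunit together with the smallest ribosomal RNA, and when unassembled they bind the ubiquitin ligase Mdm2. Rpl5 had 258, 242 and 331 FPKM in the older hearts, against 419.6, 444 and 374 FPKM in day 0 hearts, without overlap, and fell by 0.58 on the log2 scale (limma adjusted p = 0.0424, and 0.140 without older replicate 2). Rpl11 had 23.2 ± 2.75 and 32.0 ± 2.68 FPKM in older and day 0 hearts (SD, n = 3 each) and did not pass (adjusted p = 0.0920). Mdm2 stood at 18.4 ± 2.75 FPKM in the older and 16.8 ± 3.20 FPKM in day 0 hearts (limma adjusted p = 0.694).

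Among the other large subunit rows that passed, Rpl21 showed the largest size of change beside Rplp1. Its main row (ENSRNOG00000000957) had 196, 172 and 184 FPKM in the older hearts, against 425, 313 and 396 FPKM in day 0 hearts, with no overlap and a log2 fold change of -1.02 ± 0.13 (SE, limma adjusted p = 0.00552). Rpl18 had 184, 189 and 215 FPKM in the older hearts, against 307, 307 and 311 FPKM in day 0 hearts. The day 0 libraries were nearly equal, and Rpl18 fell by 0.65 on the log2 scale (adjusted p = 0.00789, limma). Rpl6 had 107, 131 and 154 FPKM in the older hearts and 227, 237 and 204 FPKM in day 0 hearts, and fell by 0.78 (adjusted p = 0.0195, and 0.0840 without day 0 replicate 2).

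Abundant large subunit transcripts in the older hearts included Rpl35, given above, and Rpl36, at 652 ± 49.6 FPKM in the older and 991 ± 108 FPKM in day 0 hearts (SD, n = 3 each). Rpl36 fell by 0.60 on the log2 scale (limma adjusted p = 0.0195), and kept the call in 1 of the 6 refits with a library left out. Rpl34 averaged 237 FPKM in the older and 372 FPKM in day 0 hearts, Rpl29 218 and 328, and Rpl23 228 and 331 FPKM in that order. Rpl24, which forms a bridge to the small subunit, averaged 367 FPKM in the older and 523 FPKM in day 0 hearts, Rpl32 370.5 and 524, and Rpl15 89.7 and 126 FPKM. For these 6 the log2 fold changes ran from -0.64 to -0.49, none of them had overlapping ages, and each passed in 1 of the 6 refits with a library left out.

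In the small subunit, Rps23, which sits at the decoding centre where codons are checked, had 749, 745 and 764 FPKM in the older hearts, against 1209.7, 1094 and 1151 FPKM in day 0 hearts. The older libraries lay close together and all below day 0, and Rps23 fell by 0.61 ± 0.08 on the log2 scale (SE, limma adjusted p = 0.00699). Rps16, whose tail touches the tRNA in the peptidyl site, had 210.5, 188 and 206 FPKM in the older hearts, against 302, 309 and 289 FPKM in day 0 hearts, and fell by 0.57 (adjusted p = 0.0109). Rpsa, which is also known as the laminin receptor precursor, had 198, 193 and 211 FPKM in the older hearts, against 299.95, 282 and 312 FPKM in day 0 hearts, and fell by 0.57 (adjusted p = 0.0112). For Rps16 and Rpsa too the ages did not overlap.

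Rps3 and Rps10 lie near the entry of the mRNA channel. Rps3 had 105, 125 and 121 FPKM in the older hearts, against 172, 171 and 174 FPKM in day 0 hearts, and Rps10 had 268, 271 and 314 FPKM, against 424, 393 and 413 FPKM. Both were lower in every older library and passed the test (limma adjusted p = 0.0172 and 0.0190), at 0.0612 for Rps3 without day 0 replicate 2 and 0.0784 for Rps10 without older replicate 2.

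Rps25, known for its need in initiation at some viral internal entry sites, averaged 204 FPKM in the older and 342 FPKM in day 0 hearts, Rps3a 279.7 and 409, Rps4x 229.6 and 299, Rps24 194 and 269, and Rps15a 181 and 259.6 FPKM in the same order. Their log2 fold changes ran from -0.73 in Rps25 to -0.38 in Rps4x, each was called lower, and none had overlapping ages. Rps24 and Rps15a passed in 0 of the 6 refits with a library left out, Rps25 and Rps4x in 1 and Rps3a in 2. Rps12 and Rps15 also had no overlap, with log2 fold changes of -0.45 and -0.23, and did not pass (limma adjusted p = 0.0927 and 0.237).

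Rps27a is made as a fusion with ubiquitin, and the product of Fau, which releases Rps30, carries a ubiquitin-like domain. The main Rps27a row (ENSRNOG00000004426) had 205, 205 and 181 FPKM in the older hearts, against 333, 277 and 349.9 FPKM in day 0 hearts, and fell by 0.69 on the log2 scale (adjusted p = 0.0144, and 0.0620 without older replicate 3). Fau, at 182 ± 58.6 FPKM in the older and 223 ± 78.6 FPKM in day 0 hearts (SD, n = 3 each), did not pass (limma adjusted p = 0.622).

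**Figure D4:**
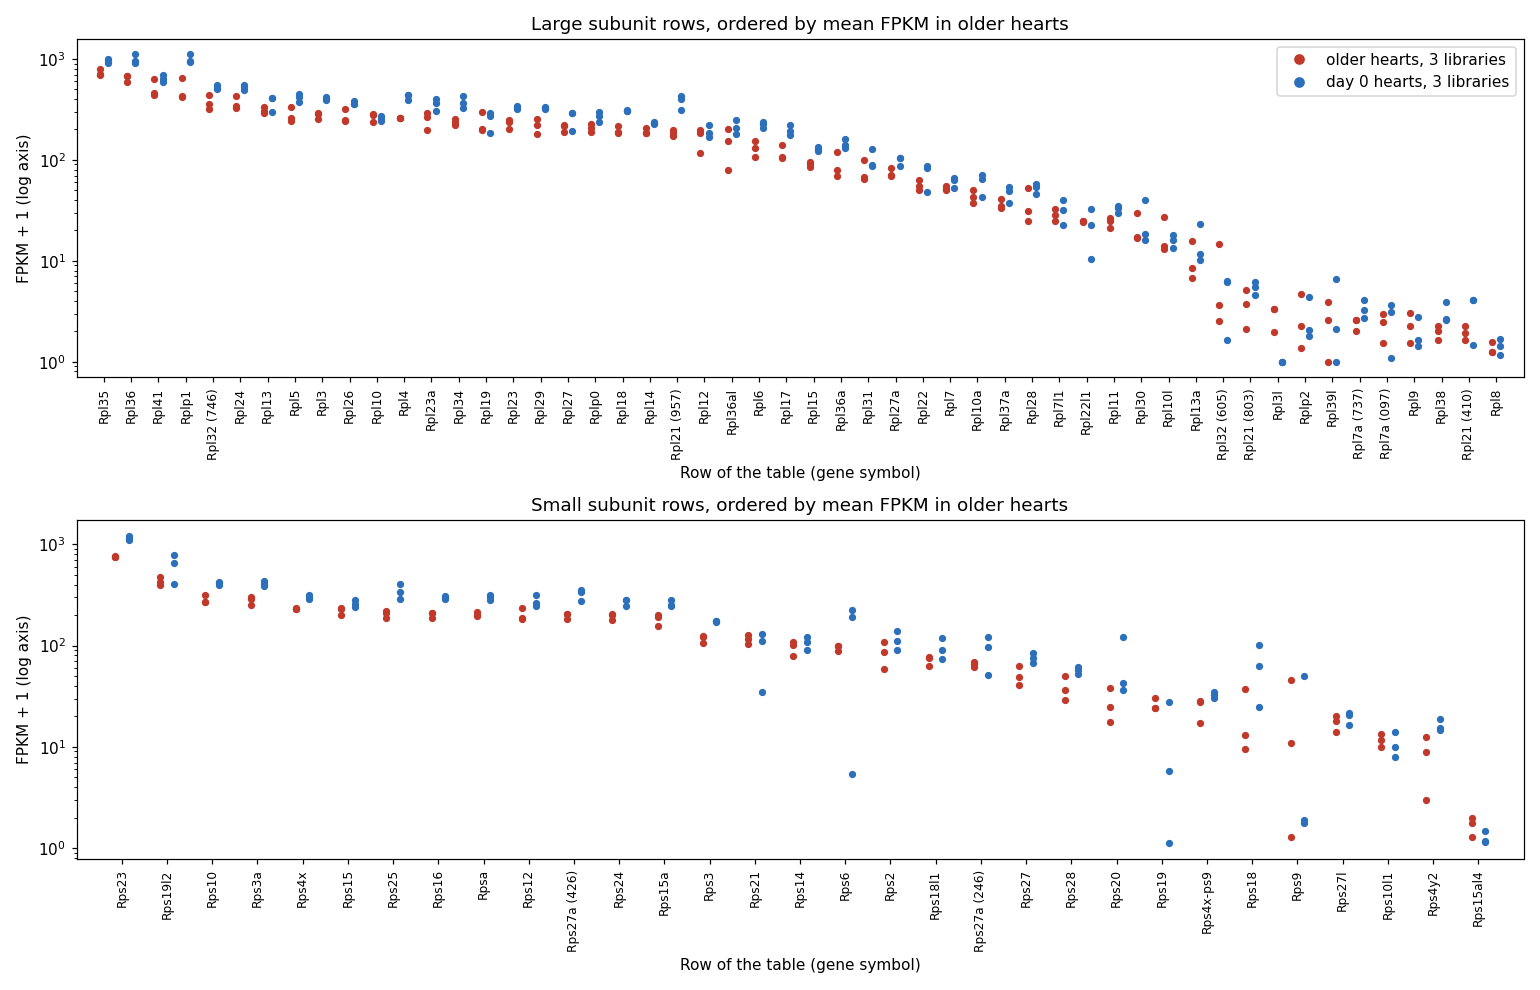
FPKM + 1 (log axis) of each member row in the 3 older libraries (red, left of each tick) and the 3 day 0 libraries (blue, right), with the subunits in separate panels and rows ordered by their mean in older hearts. Rows that share a symbol carry the last digits of their identifier. Some rows are not drawn. The lowest row of the large subunit is Rpl8, at 0.356 FPKM in older hearts, and at the low end of both panels the libraries of an age scatter widely.

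A list of tissue-restricted and duplicated copies held 9 rows, of which 8 were tested and 0 called by limma. Among all genes tested 5.73% were called lower and 3.52% higher, so 0 of 8 is close to those shares. At an unadjusted p under 0.05 there was 1, a threshold at which all genes were not counted. The median log2 fold change of the 8 was -0.13. The list left out Rps15al4, Rps19l2, Rps18l1 and Rps4x-ps9, which were counted in the small subunit. The last carries a pseudogene's symbol but is annotated as protein coding. Rps19l2, Rps18l1 and Rps4x-ps9 had log2 fold changes of -0.45, -0.37 and -0.45 and did not pass. Rpl3l, which replaces Rpl3 in ribosomes of heart and skeletal muscle, was listed at 2.34, 2.35 and 0.988 FPKM (50, 51 and 20 reads) in the older hearts, against 0 FPKM and 0 reads in each day 0 heart. The groups did not overlap, and against a floor of 3 reads per day 0 library the older mean was at least 12.5-fold higher. Rpl3l was left out of the test by its mean under 1 FPKM. With no such filter its log2 fold change was 1.49 with adjusted p = 0.0288 (limma), where 2.39% of all rows were called higher, and the authors' deposited table gives 7.80 with an adjusted p of 0.000114. Rpl3l made up 0.924%, 0.826% and 0.338% of the summed FPKM of Rpl3 and Rpl3l in the older hearts, against 0% in day 0 hearts, where 3 reads would give 0.0342% to 0.0397% of the Rpl3 level. At both ages Rpl3 was the main form.

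Rpl22l1, the copy of Rpl22, had 23.9, 23.3 and 24.0 FPKM in the older hearts and 21.8, 31.5 and 9.31 FPKM in day 0 hearts, which overlapped (log2 fold change 0.33, limma adjusted p = 0.631). Rpl22 itself had 55.6 ± 6.34 and 71.9 ± 21.2 FPKM in older and day 0 hearts (SD, n = 3 each; adjusted p = 0.422). Rpl36al, an intron-poor copy of Rpl36a, had 144 ± 61.7 FPKM in the older and 213 ± 34.5 FPKM in day 0 hearts, above its parent Rpl36a at 88.2 ± 27.6 and 144 ± 15.4 FPKM; neither passed (limma adjusted p = 0.247 and 0.0708). Rps27l, Rpl7l1, Rps10l1, Rpl10l and Rpl39l had log2 fold changes between -0.19 and 0.15, and Rps4y2 had 1.96, 11.4 and 7.98 FPKM in the older hearts against 14.3, 18.0 and 13.7 FPKM in day 0 hearts (-1.23, adjusted p = 0.166, limma). Rps19bp1 stood at 17.0 ± 5.43 and 22.9 ± 6.61 FPKM in older and day 0 hearts and did not pass (adjusted p = 0.403).

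Several members read very differently within one age. In 18 rows the highest library of an age was over 3 times the lowest, and of the 15 of these that were tested limma called 0. Limma called 5.73% of all genes tested lower and 3.52% higher, so 0 of 15 is close to those shares. At an unadjusted p under 0.05, 3 of the 15 were lower and 0 higher. All genes were not counted at that threshold. Rps6, the target of the S6 kinases, had 97.7, 86.8 and 97.8 FPKM in the older hearts, against 192, 4.37 and 226 FPKM in day 0 hearts. Its second day 0 library held 46 reads, where the other two held 2183 and 2868. The log2 fold change was 0.62 over all libraries (limma adjusted p = 0.802) and -1.14 without day 0 replicate 2 (adjusted p = 0.0160), so 1 library set its sign.

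Rps9, which helps form the mRNA entry channel, had 0.297, 9.82 and 45.0 FPKM in the older hearts and 0.767, 49.1 and 0.905 FPKM in day 0 hearts, high and low at both ages. Rps19, the gene most often mutated in people with Diamond-Blackfan anaemia, had 23.4, 23.1 and 29.2 FPKM in the older hearts, against 26.6, 4.78 and 0.116 FPKM in day 0 hearts, the last from 1 read. Its log2 fold change of 2.21 was the highest of the members and did not pass (limma adjusted p = 0.211). The related row Rps19l2 was far more abundant, at 398, 426 and 473 FPKM in the older hearts and 645, 406 and 784 FPKM in day 0 hearts (-0.45, adjusted p = 0.260).

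Rps18 had 12.0, 8.60 and 35.9 FPKM in the older hearts and 62.1, 101 and 23.5 FPKM in day 0 hearts, the most negative log2 fold change of the members at -1.70, and Rps20 had 16.8, 23.8 and 36.9 FPKM and 119, 35.3 and 41.8 FPKM in the same order (-1.16). Neither passed (adjusted p = 0.139 and 0.172, limma). The authors' deposited test does list Rps18 as lower, at a log2 fold change of -1.61 and an adjusted p of 0.0191. It gives Rps20 an adjusted p of 0.0744. The row Rps18l1 had 70.6 ± 7.79 FPKM in the older and 93.3 ± 23.6 FPKM in day 0 hearts (SD, n = 3 each), above Rps18 at both ages.

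**Figure D5:**
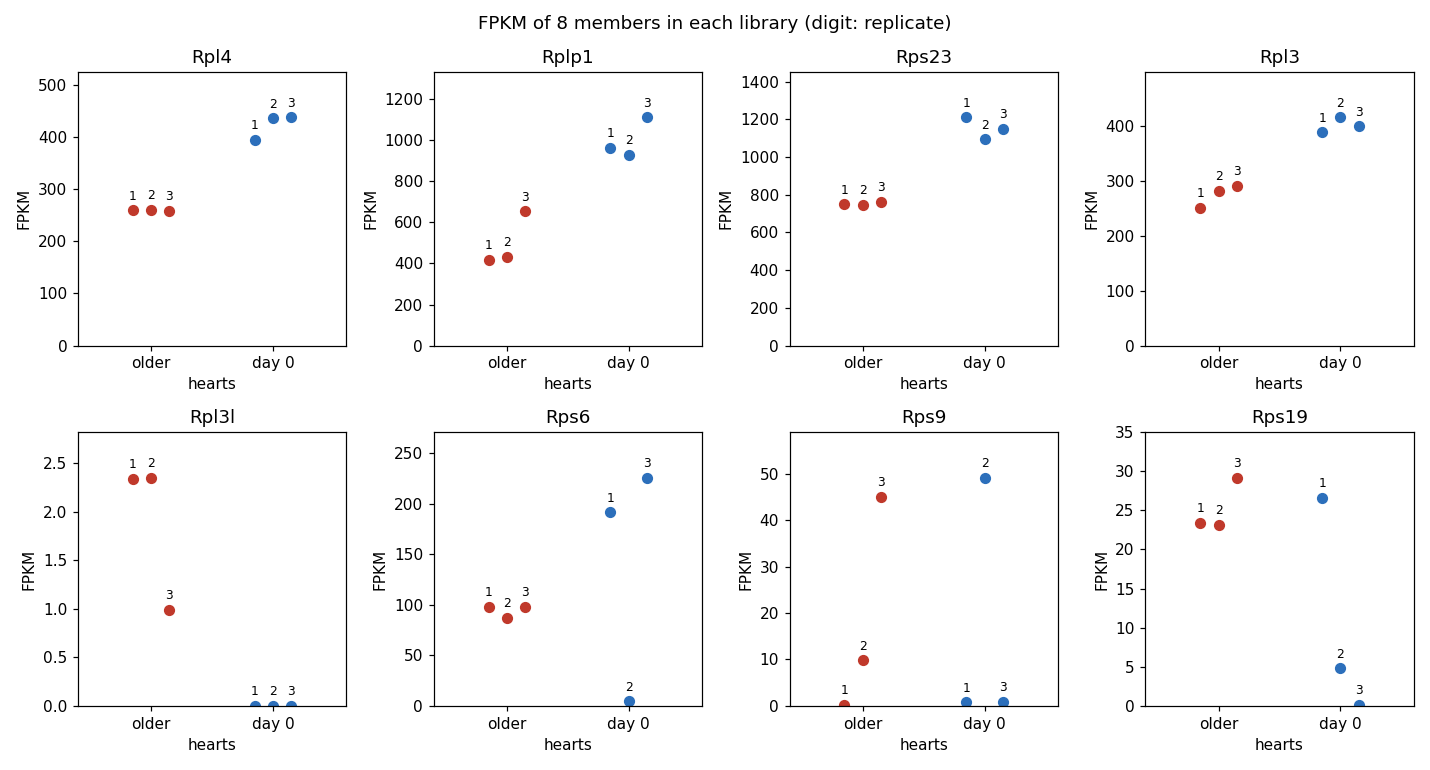
FPKM of 8 members in each library, older hearts left of day 0 hearts, with the replicate number over each point and a separate axis from 0 for each gene. Rpl4, Rplp1, Rps23 and Rpl3 separate by age and Rpl3l is at 0 in the 3 day 0 libraries, whereas Rps6, Rps9 and Rps19 hold single libraries near 0.

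Rows close to 0 included genes that every cell uses, Rplp2 among them. Rpl8 averaged 0.356 FPKM in the older and 0.424 FPKM in day 0 hearts, Rpl38 0.977 and 2.05, Rpl9 1.28 and 0.946, and the Rpl7a rows 1.39 and 2.34 (ENSRNOG00000047737) and 1.34 and 1.62 FPKM (ENSRNOG00000049097) in that order. RefSeq names a median of 9 pseudogenes after a member, and reads shared with near-identical copies can be split or dropped in counting, so levels of these rows and their order are uncertain. The number of such pseudogenes had a Spearman correlation of 0.03 with the log2 fold change across the 86 tested members. Where a symbol held several rows, the abundant one passed in Rpl21, Rpl32 and Rps27a. The other rows had 2.65 and 4.45 FPKM (Rpl21, ENSRNOG00000032803), 0.932 and 2.21 FPKM (Rpl21, ENSRNOG00000029410), 5.92 and 3.72 FPKM (Rpl32, ENSRNOG00000032605) and 64.7 and 88.9 FPKM (Rps27a, ENSRNOG00000034246) in older and day 0 hearts, and did not pass.

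Other genes with TOP mRNAs, most of them translation factors or RNA-binding proteins, were set beside the members. Of 16 tested, 5 were lower and 0 higher, 16 had a negative log2 fold change and the median was -0.47. All 5 averaged above 100 FPKM, as did Eef1b2, Eef2, Tpt1, Btf3 and Vim, which did not pass. The rest of the 16 averaged below 100 FPKM and did not pass either. Of all genes above that level 26.3% were called lower, a share to set beside the named genes only. Of all genes tested it was 5.73%. The median of all genes was -0.11, with 58.6% negative. Eef1a1, the factor that brings tRNAs to the ribosome, had 1802, 1851 and 2220.1 FPKM in the older hearts, against 3429, 3010.2 and 3404 FPKM in day 0 hearts. The ages did not overlap, and it fell by 0.75 on the log2 scale (limma adjusted p = 0.0113). Eef1g, Npm1, Pabpc1 and Hnrnpa1 were the other four, at 221, 343, 581 and 156 FPKM in the older hearts and 354, 593, 912 and 295 FPKM in day 0 hearts. Eef2, the translocase, had 441 ± 58.1 and 580.4 ± 28.0 FPKM in older and day 0 hearts (SD, n = 3 each) and did not pass (limma adjusted p = 0.0758).

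Of 33 tested genes that build ribosomes in the nucleolus, 7 were lower and 1 higher, and the median log2 fold change was -0.43. The shares over all genes tested were 5.73% lower and 3.52% higher. Fbl, the enzyme that methylates ribosomal RNA under guide RNAs, had 12.3 ± 2.79 FPKM in the older and 27.3 ± 3.92 FPKM in day 0 hearts (SD, n = 3 each; -1.10, limma adjusted p = 0.0189). Rrp12 had 3.85 ± 0.605 and 10.5 ± 1.78 FPKM and Wdr12 6.41 ± 1.15 and 14.8 ± 2.002 FPKM in the same order (-1.24 and -1.10). Ncl, Nop58, Nolc1 and Npm1 were the other four that were lower. Nmd3, the adaptor that carries the large subunit out of the nucleus, was higher, at 50.3 ± 6.96 FPKM in the older and 27.9 ± 7.68 FPKM in day 0 hearts (0.85, limma adjusted p = 0.0440).

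Of 14 tested genes of RNA polymerase I and its factors, which transcribe ribosomal RNA, 1 was lower and 0 higher: Polr1d, at 28.1 ± 1.95 FPKM in the older and 48.0 ± 9.74 FPKM in day 0 hearts (SD, n = 3 each; limma adjusted p = 0.0400). Of 15 tested regulators of TOP mRNAs and growth signalling, 1 was lower and 0 higher: Rps6kb1, an S6 kinase, at 11.9 ± 1.49 and 20.4 ± 2.76 FPKM in that order (adjusted p = 0.0403). Larp1 stood at 44.8 ± 1.798 FPKM in the older and 44.0 ± 5.13 FPKM in day 0 hearts, and Mtor at 12.2 ± 1.97 and 13.3 ± 3.23 FPKM (limma adjusted p = 0.896 and 0.818). Among 6 proliferation markers Ccnb1 was lower and 0 were higher. Beside the counts of these short lists, 5.73% of all genes tested were called lower and 3.52% higher. The part of proliferating cells in the values above was not tested.

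The authors' deposited table carries its own test. At its adjusted p under 0.05 it lists 28 members lower and 1 higher, Rpl3l, where it lists 5.53% of all rows lower and 6.26% higher.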

How the data were processed

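Input RNA of 6 rat heart libraries, 3 per age, was analysed. Per the submitters' processing notes HISAT2, HOMER 4.10 and build rn5 were used; their roles, the counter and the annotation are not stated. The deposited values are FPKM, as the values themselves show: within a gene they are whole multiples of 1 read, and whole reads were recovered for 100% of rows (checked on simulated data). The authors' deposited table also lists for each row a log2 fold change with its p-value and adjusted p-value, by an unstated test. Symbols and biotypes are those of the table.

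FPKM were tested with limma 3.58.1 (R 4.3.3; trend) on log2(FPKM + 1) over 13117 genes averaging 1 FPKM or more, 3 older against 3 day 0 libraries, with Benjamini-Hochberg adjustment over all of them. Columns headed 10D were taken as the day 7 input samples and those headed OD as the day 0 input samples. Large and small subunit came from the symbol. RefSeq matched 86 of 89 rows by symbol. Members and lists were chosen with earlier results of these data known. Named members were all called ones, the 3 highest and lowest fold changes and the 3 most abundant of each subunit, stalk proteins, paralogues with their parents, rows sharing a symbol and Rps19bp1; from the other lists, called genes and at most 3 at either end. Some of these are counted but not reported here by name. Members named beyond these were chosen after their values were seen. Intervals and floors cover counting error only, since amplified reads carry no molecular identifiers. Alternatives were pseudocount, filter, scaling, replicate block, voom, left-out libraries and member definitions.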

Additional observations from a re-analysis of the deposited data

How the results depend on the processing

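Over all genes, limma called 1214, of which 38.1% were higher; 57.1% of calls were higher after median centring and 56.4% after quantile normalization. The count was 1831 with voom on the recovered reads, and 363 to 1130 with 1 library left out. Of the 31 members called, 20 were called after median centring and 9 after quantile normalization, and 4 to 25 members were called with 1 library left out, of which 4 to 22 were among the 31, the fewest without older replicate 2. Replicate numbers are shared between the ages. Deviations of same-numbered libraries correlated at -0.04, -0.003 and -0.05, and those of other pairs at -0.02 to 0.06. No pairing thus showed over all genes, but correlations over all genes cannot exclude a shared batch that affects few of them. With the replicate number as a block, 501 genes and 11 members were called, all 11 of them among the 31. The median log2 fold change of the large subunit was -0.29 after quantile normalization and -0.52 to -0.36 with 1 library left out. That of the small subunit was -0.34 after median centring, -0.30 after quantile normalization and -0.57 to -0.40 with 1 library left out. The difference in share was -0.76 points for the large and -0.44 points for the small subunit on summed FPKM. On reads, where long genes weigh more, it was -0.299 and -0.166 points. The members held a smaller share of reads than of FPKM, so these points have unlike bases. Relative to day 0, the older share of reads was 0.698 times for the large and 0.696 times for the small subunit, against 0.705 and 0.711 times on FPKM. Leaving out the wide-spread rows left 31 called. Leaving out paralogues and copies, or all but 1 row per symbol, also left 31. The 2 planned count models were not run because the table holds FPKM; voom, the omission of wide-spread rows and the share of reads were chosen after seeing the data. No called member changed sign. Among the named members that did not pass, these changed sign: Rpl7a (ENSRNOG00000049097) was at 0.32 with a pseudocount of 0.1, 0.085 after median centring and 0.53 with voom, Rpl7l1 at 0.0066 after median centring, Rps15 at 0.041 after quantile normalization, and Rplp2 at 0.063 after median centring and 0.060 after quantile normalization. With 1 library left out, log2 fold changes ran from -0.59 to 0.30 for that Rpl7a row, -0.33 to 0.073 for Rpl7l1, -0.52 to 0.36 for Rplp2, -0.0018 to 0.12 for Rpl10, -0.20 to 0.32 for Rpl10l, -0.14 to 0.69 for Rpl22l1, -0.40 to 0.86 for Rpl32 (ENSRNOG00000032605), -0.79 to 0.58 for Rpl39l, -0.038 to 0.37 for Rps10l1, -1.14 to 1.56 for Rps6 and -0.56 to 2.24 for Rps9. Few reads limit the rows under 10 FPKM, where counting alone gives a median coefficient of variation of 27.6%. The causes of these shifts were not tested.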
